A study of Homo sapiens with 9 samples.

Results

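GDF15 (growth differentiation factor 15) was followed in HT-29 cells, an established human colorectal adenocarcinoma line, across 9 arrays. It was found as every row of the deposited value table whose platform annotation carries the symbol GDF15, which gave 1 row of 53617 and 1 gene of the 14884 named in the table. GDF15 was selected on its measured log2 levels in these same arrays, high with rosemary extract and near the untreated level with carnosic acid, so its values are given as a description and carry no test. Tests were kept for other genes, read from a fit over all 11163 genes tested.

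GDF15 is a divergent, secreted member of the transforming growth factor beta (TGF-beta) family. It is made as a proprotein, dimerised, and cut by furin-type convertases before the mature dimer circulates. Its receptor is GFRAL, found in the hindbrain, which signals through the tyrosine kinase RET, and circulating GDF15 lowers food intake. Many cell stresses raise the transcript: ATF4 and CHOP, the transcription factors of the integrated stress response, act on the gene, as does EGR1 in colorectal cancer cells.

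The study set 3 groups of 3 arrays each beside one another, all read 24 h after treatment of adherent cells grown in serum. The groups were rosemary extract, a mixture of plant polyphenols and terpenes, carnosic acid, a phenolic diterpene of rosemary, and controls that the labels call untreated and the treatment protocol describes as given vehicle. No dose was stated in the labels for either agent, so differences between the treatments may include a difference in dose. The series describes biological replicates but names no culture dates, and p-values measure the spread between these samples.

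The values were log2 signals from whole-transcript arrays, and array medians lay between 4.82 and 4.90 over all rows. Within groups, pairs of arrays correlated at r of 0.991 or more, and no pair was identical. A gene was called when its adjusted p in limma, with Benjamini-Hochberg adjustment over all tested genes, was under 0.05. Rosemary extract against untreated cells gave 4256 calls, carnosic acid against untreated cells 2123, and rosemary extract against carnosic acid 1933; the first and second of these comparisons share the untreated arrays. All 10 named colon epithelial markers were above the brightness limit for testing, with group means from 5.59 to 12.6, and CDH1, LGALS4 and MUC2 had no named row here. With rosemary extract 2 of them were called higher and 4 lower, beside 21.8% and 16.3% of all tested genes. With carnosic acid 3 were called higher and 3 lower, beside 12.9% and 6.12%. CEACAM5, a carcinoembryonic antigen, differed from untreated cells by 2.82 log2 units with rosemary extract and 2.22 with carnosic acid, KRT20, a keratin of differentiated colon cells, by 0.77 and 0.88, and VIL1, the brush border protein villin, by -1.29 and -0.35, all called. KRT18 (-0.48 and -0.31) and EPCAM (-0.19 and -0.21) were called lower with both treatments. TFF3 was called lower with rosemary extract only (-0.26), and KRT19 higher with carnosic acid only (0.28). Of 4 named leukocyte markers, the lysosomal protein CD68 rose with both treatments, averaging 9.83 with rosemary extract, 9.18 with carnosic acid and 7.94 in untreated cells. LYZ was bright in all groups, averaging 12.17 with rosemary extract, 12.35 with carnosic acid and 12.43 in untreated cells. It was called lower with rosemary extract. CD14 group means were 4.67 to 4.98, and PTPRC had no named row here. Summed levels of the 4, of which LYZ was the largest part, ranged from 31.7 to 32.5 with rosemary extract. They were 31.2 to 32.2 with carnosic acid and 31.0 in all untreated arrays. The part of CD68 and of the epithelial markers in the results for GDF15 was not tested. Of 8 named fibroblast, endothelial and hepatocyte markers, DCN, PECAM1, KDR and ALB were below the brightness limit and not tested, and none of the other 4 was called with either treatment.

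GDF15 had log2 levels of 10.72, 10.92 and 10.67 in the rosemary extract arrays. With carnosic acid they were 9.76, 9.64 and 9.13, and in untreated cells 9.68, 9.53 and 9.41. The rosemary extract arrays lay above all 6 others, with the lowest at 10.67 against 9.76 for the highest of the rest, while the carnosic acid and untreated arrays overlapped. Means were 10.77 ± 0.13 with rosemary extract, 9.51 ± 0.34 with carnosic acid and 9.54 ± 0.13 in untreated cells (SD, n = 3 each). The order of means was thus rosemary extract, untreated and carnosic acid, the last pair with overlapping ranges.

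**Figure D1:**
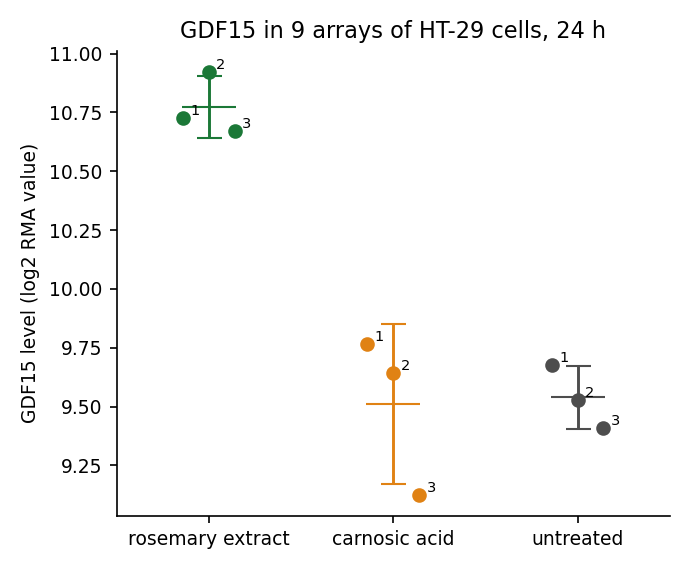
GDF15 level (log2 RMA value, vertical axis, not starting at 0) in each of the 9 arrays by group; points are arrays numbered by replicate, wide bars are group means and the vertical bars 1 SD. The rosemary extract arrays sit between 10.67 and 10.92, and the other 6 between 9.13 and 9.76, with carnosic acid replicate 3 the lowest.

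The GDF15 level was 1.23 ± 0.14 (SE) log2 units higher with rosemary extract than in untreated cells, or 2.35-fold. Between single arrays the fold ranged from 1.99 to 2.85. That difference ranked 171 of 11163 tested genes, and 291 genes were at least 2-fold higher in this comparison, where 21.8% of tested genes were called higher and 16.3% lower.

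Against carnosic acid, the rosemary extract level was 1.26 ± 0.14 log2 units higher, or 2.40-fold. Here GDF15 ranked 21 of 11163, in a comparison with 8.24% of genes called higher, 9.07% called lower and 41 genes at least 2-fold higher. Carnosic acid minus untreated gave -0.027 ± 0.14 log2 units, and 1311 tested genes had a smaller absolute difference. In that comparison 12.9% of genes were called higher and 6.12% lower.

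Complete separation of the 3 rosemary extract arrays above the other 6 was seen for 1490 tested genes (13.3%). By the size of that gap, 0.91 log2 units, GDF15 ranked 23. The pooled within-group SD of GDF15 was 0.224, and 6.49% of tested genes had a larger one. Carnosic acid replicate 3 held the lowest GDF15 level of all 9 arrays; without it, carnosic acid minus untreated was 0.17 log2 units and rosemary extract minus carnosic acid 1.07.

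The 250 bases before the RefSeq start of GDF15 are shown to place the letters of known control elements. They lie on chromosome 19 of GRCh38.p14 at chr19:18385908-18386157, plus strand, and capitals mark matches to the motifs described next, on either strand.
GDF15: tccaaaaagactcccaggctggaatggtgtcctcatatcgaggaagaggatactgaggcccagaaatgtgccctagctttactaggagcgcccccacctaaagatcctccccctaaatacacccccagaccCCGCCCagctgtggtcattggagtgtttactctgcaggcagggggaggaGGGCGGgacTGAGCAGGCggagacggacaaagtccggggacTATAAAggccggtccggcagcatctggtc
Counting back from the start site, the stretch held a TATA box (TATAAA) at -29 to -24. A GC box (GGGCGG), the element read by SP1, stood at -70 to -65 and, on the other strand, at -119 to -114. A loose form of the antioxidant response element, TGANNNNGC, matched at -61 to -53 as TGAGCAGGC. It leaves all bases between TGA and GC free. A stricter form of this element, which NRF2 reads, was not searched, so the match does not show the element itself.

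These letters are common: among 35116 RefSeq promoter stretches of the same length, searched on both strands, TATAAA was present in 10.7%, GGGCGG in 42.6% and TGANNNNGC in 35.2%. The composite C/EBP-ATF element (TGATGNAA) bound by ATF4 was present in 3.14% of promoters and not in these letters of GDF15. Nor did this window hold the E-box CACGTG (6.34% of promoters), the EGR1 element GCGGGGGCG (4.72%) or the ER stress element (CCAAT, 9 free bases, CCACG; 0.0740%). A match is not a measured binding site, and letters outside the window were not searched.

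Genes whose 9 values ran most like those of GDF15 were listed by Pearson r across arrays and by Euclidean distance after subtracting each gene's untreated mean, leaving out uncharacterised loci and small RNAs. Such r values come from 3 groups of arrays on one shared scale, and they carry no test. The highest was 0.986, for DUSP13A. Next came MARS1, the cytosolic methionyl-tRNA synthetase, at 0.984, then PFDN2, a prefoldin subunit, at 0.980, and CARS1, the cysteinyl-tRNA synthetase, at 0.976. AGTRAP, ANXA6, NEBL, XBP1, ZNF114 and MT1H followed, with r down to 0.965.

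MARS1 had mean levels of 10.22 with rosemary extract, 9.54 with carnosic acid and 9.55 in untreated cells. XBP1, a transcription factor of the unfolded protein response, averaged 9.96, 9.56 and 9.47 in the same order of groups. MT1H, a metallothionein, shared the shape but not the size, at 8.58 with rosemary extract against 3.21 with carnosic acid and 3.31 in untreated cells, both below the brightness limit of 4.50; its close paralogs may share signal. With carnosic acid replicate 3 left out, 3 of these 10 genes (DUSP13A, MARS1 and CARS1) were still among the 10.

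By distance, ZNF114 (0.591), LAMP3 (0.593), TDP2 (0.659) and AARS1 (0.749) were nearest, followed by CALCOCO2, ANXA6, CARS1, ZNF558, KLF9 and ITPKA up to 0.797. LAMP3, a lysosomal membrane protein, averaged 5.78 with rosemary extract, 4.32 with carnosic acid and 4.52 in untreated cells. Its carnosic acid mean lay below the brightness limit of 4.50 and its untreated mean close to it. LAMP3 thus passed the filter through its rosemary extract values. AARS1, the alanyl-tRNA synthetase, averaged 10.75 with rosemary extract, 9.92 with carnosic acid and 9.77 in untreated cells. ANXA6, CARS1 and ZNF114 were in both lists.

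In the opposite direction, TCF19 and RAD18 had r of -0.993, MTAP -0.992, EBP -0.991 and MCM10 -0.987. Of 11161 other tested genes with a defined r, 119 had r above 0.9 with GDF15 and 545 had r below -0.9. Strongly negative r was thus more frequent than strongly positive r.

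**Figure D2:**
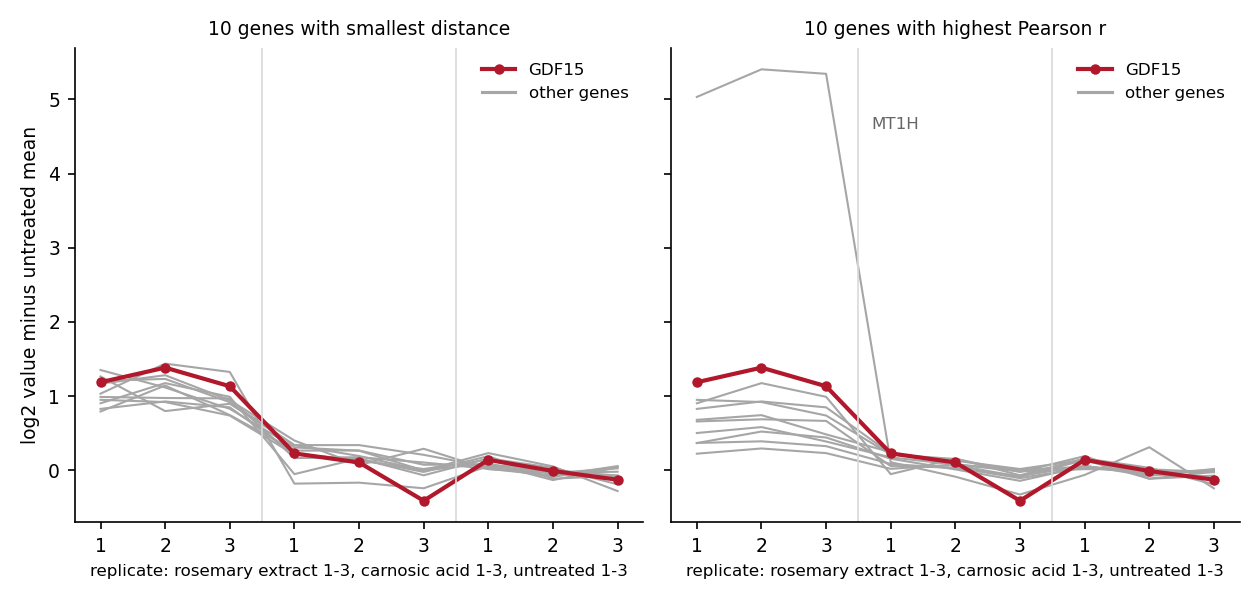
Log2 value minus the untreated mean (vertical axis) across the 9 arrays for GDF15 (red) and, in grey, the 10 genes with the smallest distance (left) and the 10 with the highest r (right). GDF15 and its neighbours by distance lie nearer 0 in the carnosic acid and untreated arrays than in the rosemary extract arrays. GDF15 dips below 0 in carnosic acid replicate 3, and the carnosic acid means of CALCOCO2 and ZNF558 lie 0.29 and 0.25 above 0. MT1H, labelled, has the same shape at a larger scale.

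Among the other ligands of the TGF-beta family, none of those tested was called higher with either treatment. Of 32 listed, 18 were tested, 6 were below the brightness limit and 8 had no named row here, among them TGFB1 and INHBA. With rosemary extract 0 were called higher in limma, also at an unadjusted p under 0.05, beside 21.8% of all tested genes called higher. In the other direction 2 were called lower, a share near or below the 16.3% over all tested genes. These were BMP4, which fell by 0.16 ± 0.050 log2 units (adjusted p = 0.0273), and LEFTY1, a Nodal antagonist, which fell by 0.44 ± 0.13 (adjusted p = 0.0192). The list's median difference was -0.12, beside -0.018 over all tested genes.

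With carnosic acid, 0 ligands were called higher, also at an unadjusted p under 0.05, beside 12.9% of all tested genes called higher. GDF1 was the 1 ligand called lower, beside 6.12% of all tested genes, with a difference of -0.30 ± 0.092 (adjusted p = 0.0424). All 3 calls rest on small differences. BMP4 missed the threshold under 5 alternatives, with an adjusted p up to 0.131: median centring, no variance trend, and leaving out untreated array 1 or 3 or extract array 2. LEFTY1 missed it under 4, up to 0.0813, when untreated array 2 or 3 or extract array 1 or 2 was left out. GDF1 missed it under 13, up to 0.163, among them every array left out in turn but carnosic acid replicate 2.

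FURIN, the convertase that opens many TGF-beta family proproteins, rose with both treatments. Its levels were 8.76, 8.65 and 8.61 with rosemary extract, 8.49, 8.54 and 8.45 with carnosic acid, and 7.80, 7.88 and 7.90 in untreated cells, so that both treated groups lay above all untreated arrays. The differences from untreated cells were 0.82 ± 0.062 log2 units with rosemary extract (1.76-fold, adjusted p = 1.26e-06) and 0.64 ± 0.062 with carnosic acid (1.55-fold, adjusted p = 5.48e-05). Rosemary extract minus carnosic acid was 0.18 ± 0.062 and missed the threshold (adjusted p = 0.0762).

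Of 12 convertases and secretory proteases listed, 7 were tested, and FURIN was the 1 called with each treatment. Over all tested genes 21.8% were called higher with rosemary extract and 12.9% with carnosic acid, so 1 call among 7 does not stand out. PCSK7, another convertase, differed by 0.060 log2 units with rosemary extract (adjusted p = 0.513) and 0.024 with carnosic acid (adjusted p = 0.833). PCSK5 differed by 0.024 with rosemary extract (adjusted p = 0.923) and 0.34 with carnosic acid (adjusted p = 0.169).

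The receptor of GDF15 was at the bottom of the scale. GFRAL averaged 3.43 with rosemary extract, 3.43 with carnosic acid and 3.41 in untreated cells. RET averaged 4.29, 4.27 and 4.45 in the same order, so both were under the brightness limit of 4.50 and were not tested. Of 10 receptors and ligands of the GDNF family, 7 were tested and 0 were called in limma in any comparison. Over all tested genes 21.8% were called higher and 16.3% lower with rosemary extract, and 12.9% and 6.12% with carnosic acid. In rosemary extract against carnosic acid the shares were 8.24% and 9.07%. At an unadjusted p under 0.05, 0 were higher and 1 lower with each treatment against untreated cells. PSPN, the ligand persephin, passed as lower with both when no variance trend was used or untreated replicate 3 was left out.

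Of 22 TGF-beta family receptors and SMADs listed, 10 were tested and 3 were called higher with each treatment, none lower. The shares over all tested genes were 21.8% higher with rosemary extract, near that of this list, and 12.9% with carnosic acid. SMAD3, a signal-carrying SMAD of TGF-beta and activins, rose by 0.49 ± 0.11 log2 units with rosemary extract (adjusted p = 0.00370) and 0.70 ± 0.11 with carnosic acid (adjusted p = 0.000983). SMAD4, the shared partner, rose by 0.49 with rosemary extract (adjusted p = 0.00475) and 0.48 with carnosic acid (adjusted p = 0.0121). SMAD7, an inhibitory SMAD, rose by 0.45 with rosemary extract (adjusted p = 0.00228), and its 0.27 with carnosic acid missed the threshold (adjusted p = 0.0655). SMAD6 was called with carnosic acid, with a difference of 0.30. Alternatives that lost this limma call included cyclic loess (adjusted p = 0.0638), dim genes kept (0.0583) and leaving out any carnosic acid array (0.0744 to 0.107). The 3 called higher with carnosic acid ranged from 2 to 4 with single arrays left out. SMAD signalling belongs to the classical family ligands, and GFRAL is not among its receptors.

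Transcription factors known to act on GDF15 moved both ways. Of 20 listed, 17 were tested. With rosemary extract 7 were called higher and 4 lower, beside 21.8% and 16.3% of all tested genes. With carnosic acid 5 were called higher and 2 lower, beside 12.9% and 6.12%. The 5 became 3 when untreated array 2, or array 1 or 2 of the carnosic acid group, was left out. DDIT3, which encodes CHOP, had levels of 6.48, 6.48 and 6.28 with rosemary extract, 5.84, 5.70 and 5.42 with carnosic acid, and 5.12, 5.06 and 5.37 in untreated cells. The carnosic acid arrays stood between the other groups, all above the untreated ones. DDIT3 rose by 1.23 ± 0.13 log2 units with rosemary extract (adjusted p = 1.19e-05) and 0.47 ± 0.13 with carnosic acid (adjusted p = 0.0223), and rosemary extract exceeded carnosic acid by 0.76 ± 0.13 (adjusted p = 0.00136). The carnosic acid call needed 4 of the arrays: it was lost when untreated array 1 (0.0742) or 2 (0.0836) was dropped, and likewise for array 1 (0.0987) or 2 (0.0633) of the carnosic acid group.

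ATF4 mRNA rose slightly with rosemary extract; its protein is known to be controlled mainly at translation. Its levels were 9.81, 9.78 and 9.77 with rosemary extract, 9.55, 9.46 and 9.36 with carnosic acid, and 9.64, 9.59 and 9.50 in untreated cells. The rosemary extract arrays were above all others, and the carnosic acid and untreated arrays overlapped, as for GDF15. ATF4 rose by 0.21 ± 0.059 with rosemary extract (adjusted p = 0.0169), a call lost after cyclic loess (0.0731) and when untreated array 3 (0.0595) or the first extract array (0.0607) was dropped. Carnosic acid minus untreated was -0.12 ± 0.059 (adjusted p = 0.188), and rosemary extract minus carnosic acid 0.33 ± 0.059 (adjusted p = 0.00262).

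TFE3, a lysosomal and stress regulator, rose by 0.97 ± 0.065 with rosemary extract (adjusted p = 4.56e-07) and 0.67 ± 0.065 with carnosic acid (adjusted p = 5.08e-05). ATF6, a sensor of the unfolded protein response, rose by 0.75 with rosemary extract (adjusted p = 2.39e-06) and 0.25 with carnosic acid (adjusted p = 0.0176); the second call was lost when untreated array 2 (0.0593) was dropped, or the first (0.0603) or second (0.0536) of the carnosic acid arrays. RELA, an NF-kB subunit, rose by 0.55 with rosemary extract (adjusted p = 5.01e-05) and 0.53 with carnosic acid (adjusted p = 0.000278). PPARG, a nuclear receptor, fell by 1.14 ± 0.081 with rosemary extract (adjusted p = 7.23e-07) and by 0.57 ± 0.081 with carnosic acid (adjusted p = 0.000574).

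EGR1 differed by -0.042 ± 0.13 with rosemary extract (adjusted p = 0.833) and -0.083 ± 0.13 with carnosic acid (adjusted p = 0.706), though a dimmer EGR1 row gave -0.43 and -0.59, not tested. ATF3, a stress-induced partner of CHOP, differed by -0.065 ± 0.14 with rosemary extract (adjusted p = 0.759) and 0.00077 with carnosic acid (adjusted p = 0.998).

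Upstream of ATF4, 4 of 18 kinases, eIF2 subunits and phosphatase subunits of the integrated stress response were tested, so this list is thinly measured. EIF2AK3, which encodes PERK, rose by 0.57 ± 0.10 log2 units with rosemary extract (adjusted p = 0.00101) and 0.54 ± 0.10 with carnosic acid (adjusted p = 0.00404). EIF2AK2, which encodes the RNA-activated kinase PKR, fell by 0.46 with rosemary extract (adjusted p = 0.00130) and differed by -0.11 with carnosic acid (adjusted p = 0.438).

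Known ATF4 and CHOP targets, among which GDF15 itself is usually counted, were mostly higher with rosemary extract. The series title names the unfolded protein response, so their direction is not independent evidence. Of 40 listed besides GDF15, 22 were tested. With rosemary extract 15 were called higher and with carnosic acid 11, none lower, beside 21.8% and 12.9% of all tested genes called higher. In rosemary extract against carnosic acid 13 were called higher, beside 8.24% of all tested genes. The median difference was 1.05 log2 units with rosemary extract and 0.38 with carnosic acid, beside -0.018 and -0.011 over all tested genes. Placed among these genes, GDF15 came 10 of 23 for rosemary extract minus untreated, 18 of 23 for carnosic acid minus untreated and 4 of 23 for rosemary extract minus carnosic acid.

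ASNS, asparagine synthetase, had levels of 9.27, 9.27 and 9.16 with rosemary extract, 8.20, 8.37 and 8.13 with carnosic acid, and 7.04, 7.15 and 7.15 in untreated cells. Its 3 groups were fully separated, unlike those of GDF15. It rose by 2.12 ± 0.075 with rosemary extract (adjusted p = 8.70e-09) and 1.12 ± 0.075 with carnosic acid (adjusted p = 4.53e-06). TRIB3, a pseudokinase that restrains ATF4 and CHOP, had levels of 8.97, 8.88 and 8.34 with rosemary extract, 7.49, 7.54 and 7.48 with carnosic acid, and 6.93, 7.01 and 6.83 in untreated cells. It rose by 1.81 ± 0.14 with rosemary extract (adjusted p = 1.05e-06) and 0.58 ± 0.14 with carnosic acid (adjusted p = 0.0117).

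SESN2, a stress-induced brake on mTORC1, had levels of 8.66, 8.43 and 8.13 with rosemary extract, 6.86, 6.89 and 6.73 with carnosic acid, and 6.45, 6.53 and 6.17 in untreated cells. It rose by 2.02 ± 0.13 with rosemary extract (adjusted p = 3.78e-07). With carnosic acid the difference was 0.45 ± 0.13 (adjusted p = 0.0358), a call lost when array 1 (0.109) or 2 (0.0958) of the carnosic acid group, untreated array 1 (0.0653) or 3 (0.114), or extract array 2 (0.0562) was dropped, and with dim genes kept (0.0512).

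DDIT4, another mTORC1 brake, rose by 1.83 with rosemary extract and 0.42 with carnosic acid, VLDLR, a lipoprotein receptor, by 2.68 and 1.48, and PSAT1, a serine synthesis enzyme, by 1.23 and 0.46, in that order of treatments. WARS1, the tryptophanyl-tRNA synthetase, rose by 1.55 with rosemary extract and 0.80 with carnosic acid, while a dimmer row of the same gene gave 0.49 and 0.14. FGF21, the other circulating hormone of this group, had levels of 4.78, 4.55 and 4.80 with rosemary extract, 4.73, 4.73 and 4.56 with carnosic acid, and 4.83, 4.73 and 4.69 in untreated cells. Its groups overlapped, with -0.037 ± 0.095 for rosemary extract (adjusted p = 0.800) and -0.077 ± 0.095 for carnosic acid (adjusted p = 0.624). All FGF21 levels were close to the brightness limit of 4.50, so the lack of a difference says little.

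The 4 targets called with rosemary extract and not with carnosic acid, named after their values were seen, were CARS1, KLHL24, PCK2 and SHMT2. The share of all tested genes with this pair of calls was not counted. The 4 are therefore a description and not a result about the list. CARS1 was 0.87 ± 0.079 higher with rosemary extract (adjusted p = 4.81e-06) and 0.12 ± 0.079 with carnosic acid (adjusted p = 0.317). PCK2, the mitochondrial phosphoenolpyruvate carboxykinase, was 0.52 ± 0.14 higher with rosemary extract (adjusted p = 0.0108) and differed by -0.022 with carnosic acid (adjusted p = 0.932). The direct comparison of both treatments was called for CARS1 (adjusted p = 5.58e-05), KLHL24 (0.0189) and PCK2 (0.0186), and missed the threshold for SHMT2 (0.0850).

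**Figure D3:**
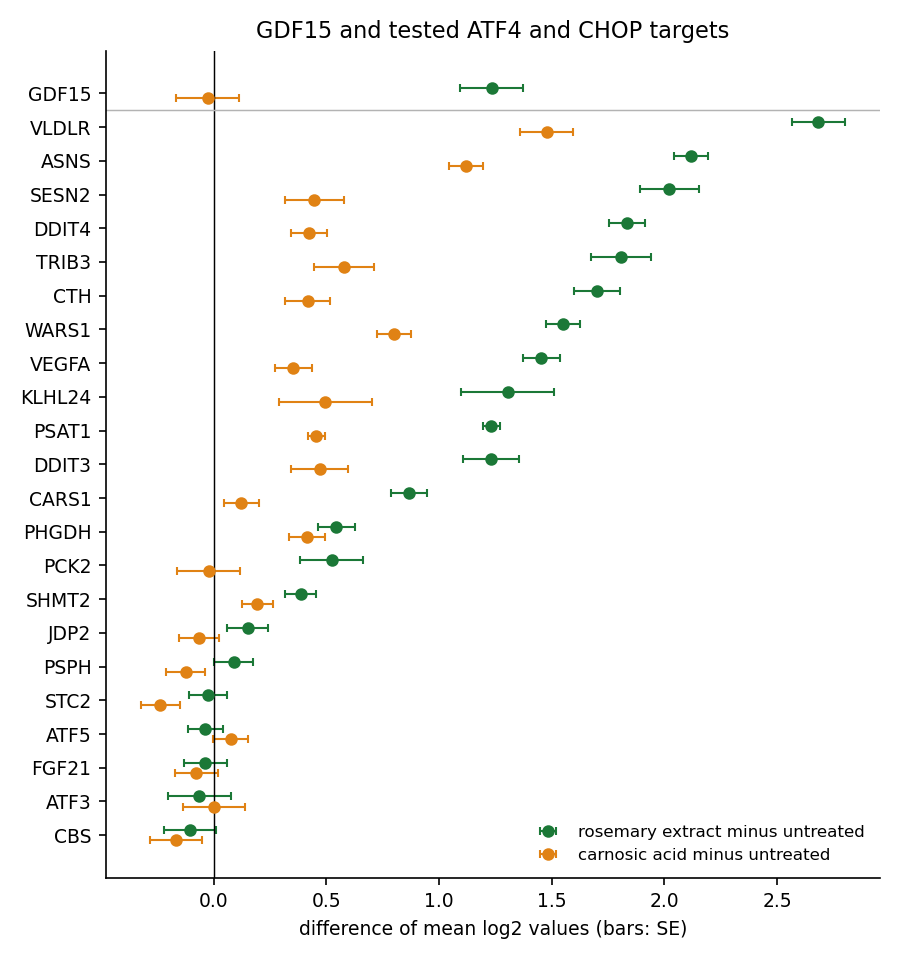
Difference of mean log2 values (horizontal axis) from untreated cells for GDF15, at the top, and the 22 tested ATF4 and CHOP targets, for rosemary extract (green) and carnosic acid (orange); bars are 1 SE. GDF15 lies at 1.23 with rosemary extract and -0.027 with carnosic acid, and PCK2 and CARS1 also lie near 0 with carnosic acid.

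Promoter letters of 1 list member, ASNS, and of AARS1 and XBP1, which were near GDF15 in pattern, are printed for comparison with GDF15, since they carry elements that its window did not. AARS1 (chr16:70289507-70289756, minus strand) and ASNS (chr7:97872409-97872658, minus strand) hold the C/EBP-ATF element, in capitals, and XBP1 (chr22:28800570-28800819, minus strand) the ER stress element. All are from GRCh38.p14, printed in the direction of the gene. ASNS and XBP1 had 2 promoter entries each, and the entry printed was picked because it holds the element, while GDF15 and AARS1 had 1 each.
AARS1: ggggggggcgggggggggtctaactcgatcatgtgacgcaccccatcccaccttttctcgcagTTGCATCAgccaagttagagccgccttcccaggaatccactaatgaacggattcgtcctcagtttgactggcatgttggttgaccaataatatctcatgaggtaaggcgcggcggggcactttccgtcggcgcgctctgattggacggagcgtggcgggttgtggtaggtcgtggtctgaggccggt
ASNS: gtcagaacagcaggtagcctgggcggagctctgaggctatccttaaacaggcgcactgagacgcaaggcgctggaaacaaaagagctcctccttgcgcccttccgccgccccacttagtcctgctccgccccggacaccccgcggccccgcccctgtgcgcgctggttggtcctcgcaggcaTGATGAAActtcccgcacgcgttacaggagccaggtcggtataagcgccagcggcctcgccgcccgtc
XBP1: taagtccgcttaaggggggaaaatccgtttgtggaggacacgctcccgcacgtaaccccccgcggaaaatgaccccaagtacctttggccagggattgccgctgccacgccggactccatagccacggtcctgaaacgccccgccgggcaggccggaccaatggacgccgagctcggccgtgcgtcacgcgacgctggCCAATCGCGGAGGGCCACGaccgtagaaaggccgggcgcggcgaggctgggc
The element stood at -68 to -61 in ASNS, at -187 to -180 on the other strand in AARS1, and the ER stress element at -52 to -34 in XBP1. Of the 40 targets, 31 matched the promoter table, and 8 of them held TGATGNAA, beside 3.89% of 27305 genes. Of the 17 genes nearest GDF15 in pattern, 13 matched and 1, AARS1, held it.

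Immediate early genes, which include EGR1, split between the directions. Of 21 listed, 18 were tested. With rosemary extract 7 were called higher and 5 lower, beside 21.8% and 16.3% of all tested genes. With carnosic acid 4 were called in each direction, beside 12.9% higher and 6.12% lower. DUSP1, a MAP kinase phosphatase, rose by 0.88 with rosemary extract (adjusted p = 9.48e-06) and 0.44 with carnosic acid (adjusted p = 0.00435). MYC fell by 0.72 with rosemary extract (adjusted p = 2.53e-05) and by 0.35 with carnosic acid (adjusted p = 0.0101), and CCN2, a matricellular protein, fell by 1.04 with both.

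All 10 tested NRF2 targets, of 22 listed, were called higher with rosemary extract and 9 with carnosic acid, beside 21.8% and 12.9% of all tested genes. Medians were 1.11 log2 units with rosemary extract and 0.76 with carnosic acid, beside -0.018 and -0.011 over all tested genes. In rosemary extract against carnosic acid 7 were called higher, beside 8.24% of all tested genes. HMOX1, haem oxygenase 1, rose by 2.96 ± 0.087 with rosemary extract (adjusted p = 4.08e-09) and 0.97 ± 0.087 with carnosic acid (adjusted p = 3.08e-05). Whether NRF2 bears on GDF15 was not tested.

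Mitochondrial stress is another known route to GDF15. Of 16 relay genes, proteases and chaperones of mitochondria listed, 12 were tested; 4 were called higher and 3 lower with rosemary extract, and 2 lower with carnosic acid. Over all tested genes the shares were 21.8% higher and 16.3% lower with rosemary extract, and 12.9% higher and 6.12% lower with carnosic acid. The list's counts also moved with single arrays: the 4 became 2 without untreated replicate 2 or extract replicate 1 or 2, the 3 became 1 without extract replicate 3, and the 2 became 1 when any of untreated arrays 1 and 3, extract array 1 or carnosic acid arrays 1 and 2 was left out. With carnosic acid 0 were called higher in limma, and 0 were higher at an unadjusted p under 0.05. HSPA9, the mitochondrial HSP70, rose by 0.29 ± 0.035 with rosemary extract (adjusted p = 4.12e-05) and differed by -0.0091 with carnosic acid (adjusted p = 0.890). TRAP1, the mitochondrial HSP90, fell by 0.55 with rosemary extract (adjusted p = 1.15e-05) and by 0.30 with carnosic acid (adjusted p = 0.00316).

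Of 35 other secreted stress and inflammatory factors, 22 were tested. With rosemary extract 6 were called higher and 3 lower, near the shares of 21.8% and 16.3% over all tested genes. With carnosic acid 4 were called higher and 1 lower, beside 12.9% and 6.12%. LCN2, lipocalin 2, an iron-scavenging secreted protein, had levels of 9.13, 9.28 and 9.27 with rosemary extract, 8.14, 8.01 and 8.23 with carnosic acid, and 8.13, 8.29 and 8.43 in untreated cells. As with GDF15, the rosemary extract arrays were above all others and the remaining groups overlapped. LCN2 rose by 0.94 ± 0.087 with rosemary extract (adjusted p = 5.68e-06), and its -0.16 ± 0.087 with carnosic acid missed the threshold (adjusted p = 0.238).

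VEGFA, the angiogenic growth factor, rose by 1.45 ± 0.082 with rosemary extract (adjusted p = 1.41e-07) and 0.35 ± 0.082 with carnosic acid (adjusted p = 0.0112). ADM, the vasodilator adrenomedullin, rose by 0.99 with rosemary extract (adjusted p = 1.67e-05), and its 0.35 with carnosic acid (adjusted p = 0.0391) lost its call under 7 alternatives. EDN1, the vasoconstrictor endothelin 1, fell with both treatments, by differences of -2.33 ± 0.14 with rosemary extract (adjusted p = 2.62e-07) and -1.94 ± 0.14 with carnosic acid (adjusted p = 9.03e-06). LIF, an interleukin 6 family cytokine, rose by 0.74 with rosemary extract and 0.67 with carnosic acid.

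**Figure D4:**
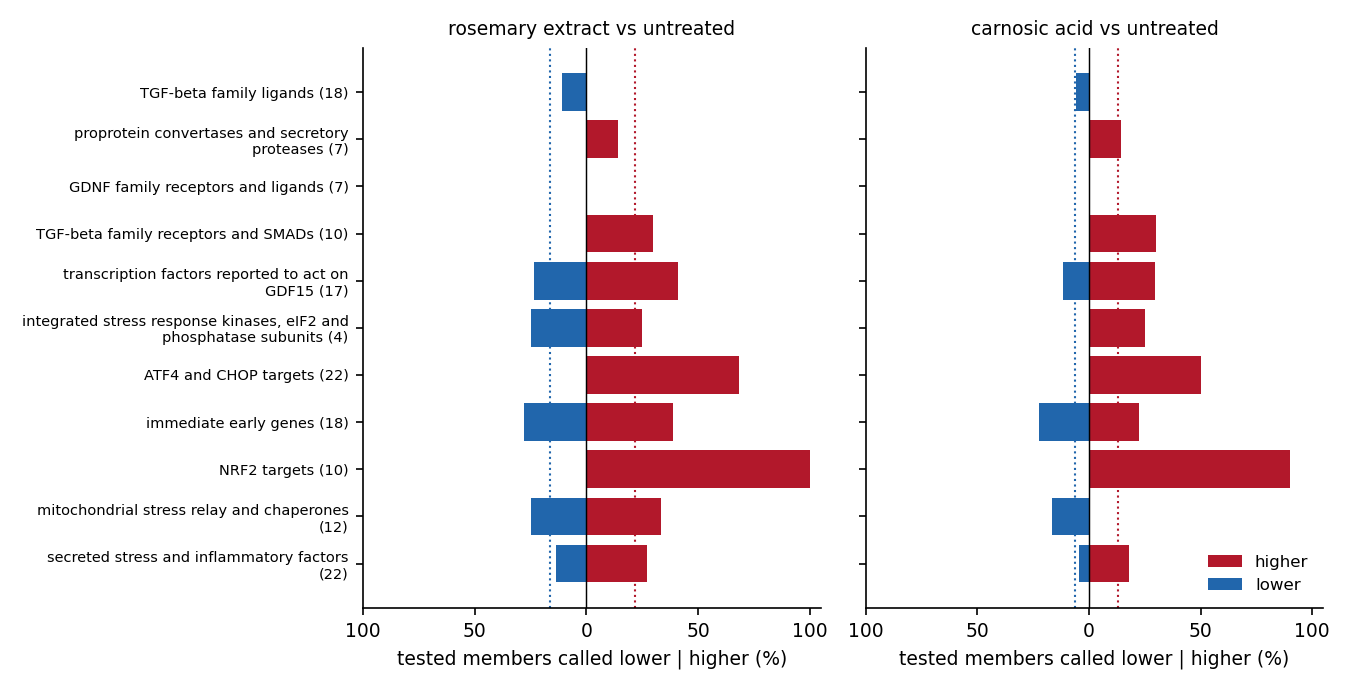
Share of the tested members of each list described (number in brackets) called higher (red, to the right) or lower (blue, to the left) in rosemary extract against untreated cells (left panel) and carnosic acid against untreated cells (right panel), in percent. Dotted lines are the shares over all 11163 tested genes, 21.8% higher and 16.3% lower with rosemary extract and 12.9% and 6.12% with carnosic acid.

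GDF15 hosts a microRNA, MIR3189, whose 73-base hairpin starts 404 bases after the gene's start in the RefSeq annotation of GRCh38.p14. Its mature forms, from RefSeq, are shown with the seed, bases 2 to 8, in capitals. They lie on the plus strand at chr19:18386570-18386594 and chr19:18386607-18386627, and their seeds differ.
hsa-miR-3189-5p: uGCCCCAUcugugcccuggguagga
hsa-miR-3189-3p: cCCUUGGGucugaugggguag
The MIR3189 row had levels of 5.82, 5.08 and 5.83 with rosemary extract, 4.90, 5.15 and 5.62 with carnosic acid, and 4.64, 5.18 and 5.18 in untreated cells. The groups overlapped. Rosemary extract minus untreated was 0.58 ± 0.23 log2 units and missed the threshold (adjusted p = 0.0735), though it passed with replicate number as a block (0.0427) and without rosemary extract replicate 2 (0.0136). Such a row reads the hairpin stretch of any total RNA, and mature microRNA was not measured.

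The genes on either side of GDF15 in annotation order were not called higher. JUND, an AP-1 subunit, differed by -0.043 with rosemary extract (adjusted p = 0.762) and IQCN by -0.058 (adjusted p = 0.712). SSBP4, beyond LRRC25 on the other side, had levels of 7.04, 6.99 and 7.14 with rosemary extract, 7.10, 7.40 and 7.32 with carnosic acid, and 7.41, 7.53 and 7.31 in untreated cells. It fell by 0.36 ± 0.093 with rosemary extract (adjusted p = 0.00901). MIR3188 and LRRC25 were below the brightness limit.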

How the data were processed

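Total RNA from 9 HT-29 cultures was hybridised to Affymetrix Gene 2.0 ST arrays. The authors deposited log2 values summarised by RMA in oligo, an R package, according to the labels and the submitters' processing notes; neither states a version. RMA places all arrays on one distribution, so shifts shared by most transcripts are removed. Rows were named from GEO's platform annotation: 16098 of 53617 rows had 1 symbol, and 37519 had none or several and were not used. For 779 genes with more than 1 row, the row with the highest mean was kept, and the lowest 25% of genes by mean (3721, under log2 4.50) were left out as dim.

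Differences were fitted over all 9 arrays and 11163 genes with limma's lmFit and trended eBayes (version 3.58.1, R 4.3.3), two-sided, with Benjamini-Hochberg adjustment. Groups came from the labels. Named genes were GDF15, the 10 highest and 5 lowest by Pearson r, the 10 nearest by distance, up to 5 members of each list by moderated F test, a short set named whatever its values, and neighbours in annotation order. Members and lists were chosen with earlier results of these data known. Alternatives were another row rule, no dim filter, 2 scalings, no trend, separate fits, a replicate block and leaving out each array. The script was tested on simulated data. The number of arrays limits the precision. Promoters and microRNAs came from RefSeq tables of GRCh38.p14. The planned look at the GDF15 protein was not run, and 1 gene list is not reported here.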

Additional observations from a re-analysis of the deposited data

How the results depend on the processing

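GDF15 kept its higher level with rosemary extract under every alternative run: rosemary extract minus untreated was 1.19 after cyclic loess, 1.26 after median centring and 1.16 to 1.30 with single arrays left out, and rosemary extract minus carnosic acid was 1.07 to 1.39 with single arrays left out. Carnosic acid minus untreated, given as a description, took either sign: it was -0.15 without carnosic acid replicate 1, 0.17 without carnosic acid replicate 3, 0.042 without untreated replicate 1, 0.012 after median centring and -0.074 after cyclic loess. Genes called with single arrays left out numbered 3490 to 4238 for rosemary extract against untreated cells, 1384 (without carnosic acid replicate 1) to 2123 for carnosic acid against untreated cells, and 1288 (without rosemary extract replicate 2) to 1964 for rosemary extract against carnosic acid. Of the 10 genes nearest GDF15 by r, 3 to 9 were kept with single arrays left out and 5 with Spearman's rho. ATF4 and CHOP targets called higher stayed at 15 with rosemary extract whichever array was left out, and were 8 to 11 with carnosic acid and 11 to 13 in the direct comparison; without carnosic acid replicate 2, 1 target was called lower with carnosic acid.

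Same-numbered arrays of different groups had residual correlations of -0.219 to 0.238, and differently numbered ones -0.355 to 0.280, so the numbers were not taken as pairs. With the replicate number as a block, 4226, 2194 and 1947 genes were called in the 3 comparisons in the order above, 12 ATF4 and CHOP targets were called higher with carnosic acid, and the GDF15 differences were 1.23, -0.027 and 1.26. Across 70 named genes, 3383 of 3531 alternative values kept their side of the threshold, 126 lost a call, 22 gained one and 0 were reversed; 21 of 116 called results lost their call at least once.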
